A study of Mus musculus with 16 samples.

Results

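The 10 genes described here are those of glucocorticoid signalling: the receptors Nr3c1 (glucocorticoid receptor) and Nr3c2 (mineralocorticoid receptor), the steroid-activating enzyme Hsd11b1, the receptor co-chaperone Fkbp5, and the hormone-responsive genes Sgk1, Tsc22d3, Errfi1, Ddit4, Cdkn1a and Zbtb16. They were chosen by name for their known roles, and make up 10 of the 22572 named genes of the deposited table. Each had 1 locus, and all 10 passed the filter of a mean of at least 1 FPKM (fragments per kilobase, a level corrected for transcript length and library size) that left 12648 genes to test. Messenger RNA was measured in 16 libraries from the hippocampus of male C57BL/6 mice, 4 libraries in each of 4 groups. BgnFru were biglycan knockout mice (Bgn0/- in the labels) given 15% (w/v) fructose in the drinking water, BgnCtrl were knockout mice on regular water, WTFru were wild-type mice on the fructose water, and WTCtrl were wild-type mice on regular water. All mice entered the drinking regime at 3 months of age and stayed on it for 6 weeks. Biglycan is a proteoglycan of the extracellular matrix and its gene lies on the X chromosome, so a male knockout carries no intact copy; the labels do not say which part of the gene is deleted.

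Glucocorticoids cross the cell membrane and bind receptors held in the cytoplasm by Hsp90 and its co-chaperones. The bound receptor moves to the nucleus, where it binds paired short sites in DNA and raises or lowers the transcription of nearby genes. The hippocampus is known for its high content of both receptors: the mineralocorticoid receptor has the higher affinity for corticosterone, and the glucocorticoid receptor is filled mostly when the hormone is high, as in stress or at the daily peak.

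The promoter windows of Sgk1 and Tsc22d3 are shown because these genes varied most among the 10 and, as described further on, varied most closely together. In RefSeq promoter windows of GRCm38.p6, each with 250 bases before and 50 bases after a transcript start, 8 of the 10 genes were matched with 17 windows. The palindromic receptor site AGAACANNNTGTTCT, which reads the same on both strands, was present in 1 of the 17 windows, that of Sgk1, and in 3 of all 32851 windows (0.00913%). A single arm of it, AGAACA on one strand and TGTTCT on the other, was present in 4 of the 17 windows, against 19.0% of all windows. These 4 were 3 of the 6 Sgk1 windows and 1 of the 3 Tsc22d3 windows, and the count of arms includes those inside the palindrome. The Sgk1 window lies at chr10:21993640-21993939 on the plus strand, and its palindrome begins at base -189 from the start; a lone arm begins at base -242. The Tsc22d3 window lies at chrX:140600473-140600772 on the minus strand, with its arm beginning at base -185. Capitals mark the sites.
Sgk1: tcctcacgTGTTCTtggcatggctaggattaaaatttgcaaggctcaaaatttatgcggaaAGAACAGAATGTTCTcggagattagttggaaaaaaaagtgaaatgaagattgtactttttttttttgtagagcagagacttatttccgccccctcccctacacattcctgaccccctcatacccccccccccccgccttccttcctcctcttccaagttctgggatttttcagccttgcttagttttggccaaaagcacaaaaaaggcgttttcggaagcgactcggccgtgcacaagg
Tsc22d3: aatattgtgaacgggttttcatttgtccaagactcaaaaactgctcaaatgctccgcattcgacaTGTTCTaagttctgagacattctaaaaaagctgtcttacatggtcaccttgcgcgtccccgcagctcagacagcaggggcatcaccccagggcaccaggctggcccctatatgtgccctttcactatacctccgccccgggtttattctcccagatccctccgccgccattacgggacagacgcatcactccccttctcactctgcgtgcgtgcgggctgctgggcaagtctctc
The deposited values are per gene, so they do not show which of the starts was used. A match of letters is a description of the window and not evidence that the receptor bound there.

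The libraries had features that touch the results below. The targeted gene, Bgn, had 5.02, 6.69, 6.73 and 7.11 FPKM in BgnFru replicates 1 to 4, 4.46, 7.23, 7.19 and 7.60 FPKM in BgnCtrl, 5.42, 20.7, 21.2 and 17.2 FPKM in WTFru, and 9.94, 11.7, 17.7 and 24.2 FPKM in WTCtrl. The library labelled WTFru replicate 1 thus lay within the knockout range, so results that rest on it are also given without it. The replicate 1 libraries of the 4 groups stood apart from the others: a term for them passed the threshold in 6372 of 12648 genes (50.4%). No library had a listed marker of hippocampal neurons at 0, and all 14 CA1 and CA3 markers and all 10 dentate granule markers were measured in every library. Depth is unknown for FPKM. The labels do not state whether replicates are different mice, and a p-value here reflects variation among the libraries, part of which may be technical. In bulk tissue fewer cells of a type and less RNA per cell cannot be told apart.

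Ordered by mean FPKM over the 16 libraries, the genes ran from Sgk1 (42.8), Tsc22d3 (35.0), Nr3c2 (33.7) and Ddit4 (25.9) through Hsd11b1 (20.4), Zbtb16 (19.1), Fkbp5 (16.6), Errfi1 (16.1) and Nr3c1 (15.7) to Cdkn1a (5.47). Apart from Cdkn1a, whose highest library (10.1) was below the lowest library of any other of the 10 genes, each gene overlapped its neighbours in this order. The receptors were the steadiest. Between libraries of the same group, the standard deviation of log2(FPKM + 1) was 0.12 for Nr3c1 and 0.15 for Nr3c2, at percentiles 34.9 and 49.3 of all genes tested. The hormone-responsive genes included the most variable, with 0.58 for Sgk1 (percentile 98.8), 0.38 for Tsc22d3 (96.4) and 0.34 for Ddit4 (94.7). This spread sets what could be detected: the 95% confidence interval of a fold change between any 2 groups reached 0.77 on the log2 scale to either side for Sgk1 and 0.18 for Nr3c1.

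**Figure D1:**
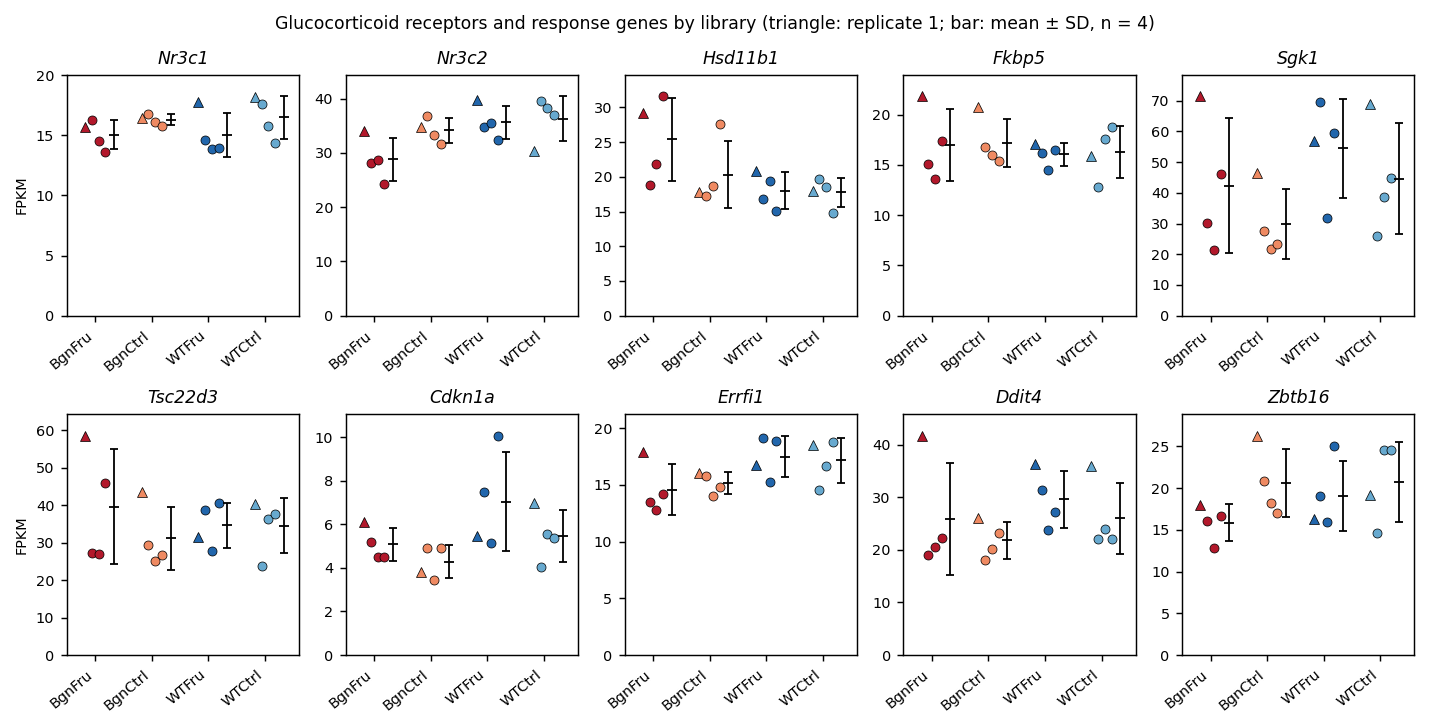
FPKM of the 10 genes in each library of BgnFru, BgnCtrl, WTFru and WTCtrl; triangles are replicate 1, circles replicates 2 to 4, and bars the mean ± SD (n = 4 each). In no panel do the BgnFru and WTFru libraries separate completely, and the spread is widest for Sgk1, from 21.2 to 71.3 FPKM.

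None of the 10 genes passed the threshold (adjusted p of 0.05, limma, Benjamini-Hochberg over all genes tested) in any of the 7 comparisons. In BgnFru vs WTFru, 475 of all genes tested were called (3.76%), and in 11% of genes the libraries of the groups did not overlap, against 0 of the 10. In BgnCtrl vs WTCtrl 0.387% were called and 4.01% did not overlap, against 0 of the 10 on both counts. Over both drinks, knockout against wild type gave 4.99% called and 1.19% without overlap, again against 0 of the 10. At an unadjusted limma p under 0.05, 3 of the 10 were counted in BgnFru vs WTFru, against 21.3% of all genes, and 4 of the 10 over both drinks, against 21.1%. The median log2 fold change of the 10 was -0.24 in BgnFru vs WTFru, with 6 lower, and -0.15 over both drinks, with 8 lower; over all genes tested both medians were -0.01.

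**Figure D2:**
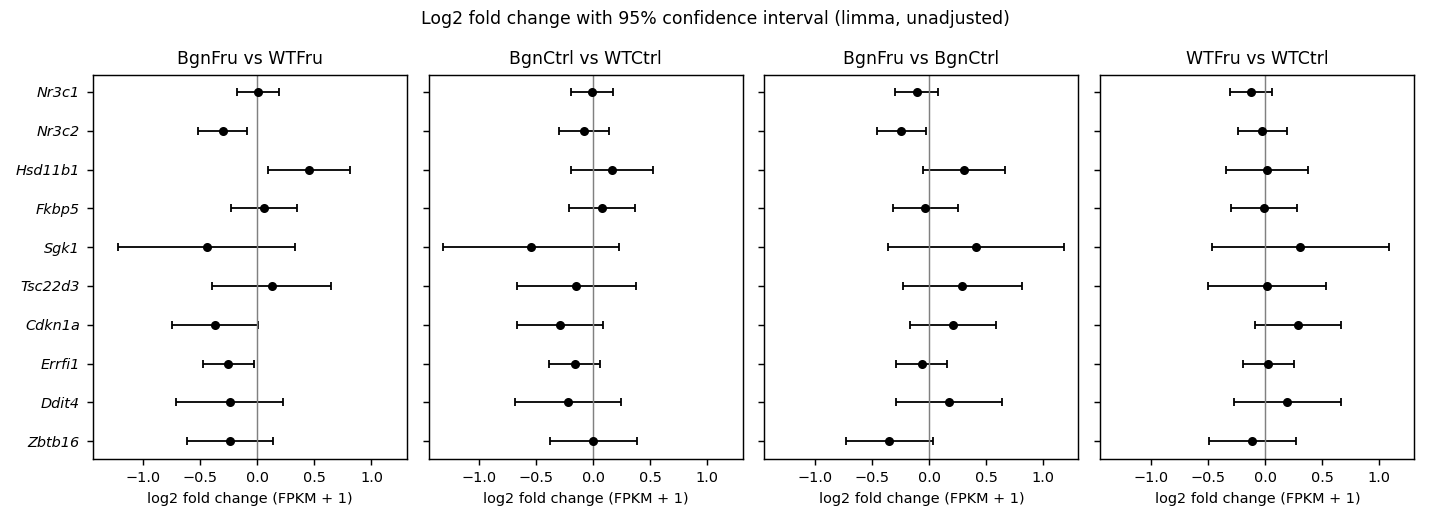
Log2 fold change on the log2(FPKM + 1) scale (x axis) of each gene (rows) in the 4 comparisons of 2 groups; points are limma estimates and bars 95% confidence intervals, not adjusted for the number of genes. The intervals of Nr3c2, Hsd11b1 and Errfi1 exclude 0 in BgnFru vs WTFru, and none of these genes passed after adjustment.

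The mineralocorticoid receptor gene Nr3c2 (chr8:76899442-77245012, plus strand, GRCm38) was the member with the smallest p-value in BgnFru vs WTFru. It had 34.0, 28.1, 28.8 and 24.3 FPKM in BgnFru replicates 1 to 4, against 39.8, 34.8, 35.5 and 32.4 FPKM in WTFru. In BgnCtrl it had 34.8, 36.8, 33.2 and 31.6 FPKM, against 30.4, 39.6, 38.2 and 36.9 FPKM in WTCtrl. All BgnFru libraries except replicate 1 lay below every WTFru library, and on water the groups overlapped. The group means were 28.8 ± 3.99 FPKM in BgnFru and 35.6 ± 3.08 FPKM in WTFru (SD, n = 4 each). The log2 fold change was -0.30 (SE 0.10, 95% interval -0.52 to -0.09, limma p 0.009, adjusted p 0.103), with 4 of 4 BgnFru libraries below the WTFru mean. On water the fold of Nr3c2 was -0.08 (interval -0.30 to 0.13, limma adjusted p 1).

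Whether Nr3c2 passed depended on how the replicate 1 libraries were treated. With a term for replicate 1 its log2 fold in BgnFru vs WTFru was -0.30 (limma adjusted p 0.0453), where 17.3% of all genes were called. In replicates 2 to 4 alone it was -0.33 (adjusted p 0.0232), where 10.9% were called. Without BgnFru replicate 1 it was -0.38 (adjusted p 0.0319), where 7.43% were called. Without the library labelled WTFru replicate 1 the fold of Nr3c2 was -0.25 (adjusted p 0.196). Within replicate 1 itself no comparison can be made, since each group has 1 such library. Over both drinks Nr3c2 gave -0.19 (SE 0.07, limma adjusted p 0.134), with a median of 32.4 FPKM in the 8 knockout libraries and 36.2 FPKM in the 8 wild-type libraries. In replicates 2 to 4 alone Nr3c2 over both drinks gave -0.25 (adjusted p 0.0136, 12.6% of genes called).

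The glucocorticoid receptor gene Nr3c1 (chromosome 18, bases 39410545 to 39519421, minus strand, GRCm38) had nearly the same level in all groups. It had 15.7, 16.3, 14.5 and 13.6 FPKM in BgnFru, 16.5, 16.8, 16.1 and 15.7 FPKM in BgnCtrl, 17.7, 14.6, 13.9 and 13.9 FPKM in WTFru, and 18.2, 17.6, 15.7 and 14.4 FPKM in WTCtrl. The groups overlapped. The log2 fold change of Nr3c1 was 0.00 in BgnFru vs WTFru (95% interval -0.18 to 0.19) and -0.01 in BgnCtrl vs WTCtrl (-0.20 to 0.17), with limma adjusted p of 0.984 and 1. The ratio of Nr3c2 to Nr3c1 FPKM was 2.16, 1.72, 1.98 and 1.78 in BgnFru, against 2.24, 2.38, 2.56 and 2.32 in WTFru, so all BgnFru libraries lay below all WTFru libraries. It was 2.12, 2.19, 2.06 and 2.01 in BgnCtrl, against 1.67, 2.25, 2.43 and 2.57 in WTCtrl, which overlapped. This ratio was formed after the levels had been seen and was not tested.

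Hsd11b1 (chr1:193221634-193264075, minus strand) encodes 11-beta-hydroxysteroid dehydrogenase type 1, which regenerates active corticosterone from its inert form inside cells. It had 29.1, 18.9, 21.9 and 31.6 FPKM in BgnFru, against 20.9, 16.8, 19.4 and 15.0 FPKM in WTFru. In BgnCtrl it had 17.8, 17.2, 18.7 and 27.6 FPKM, against 17.97, 19.7, 18.6 and 14.8 FPKM in WTCtrl. BgnFru replicates 1, 3 and 4 lay above every WTFru library, and replicate 2 lay among them; in BgnCtrl only replicate 4 was above the WTCtrl range. Hsd11b1 was the gene of the 10 with the highest fold in BgnFru vs WTFru, 0.45 (SE 0.17, 95% interval 0.10 to 0.81, limma p 0.016, adjusted p 0.135, 4 of 4 BgnFru libraries above the WTFru mean). Over both drinks it was 0.31 (SE 0.12, limma adjusted p 0.144). Without the library labelled WTFru replicate 1 the fold of Hsd11b1 on fructose was 0.52 (adjusted p 0.115), and without BgnFru replicate 4 it was 0.34 (adjusted p 0.391).

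Markers of other cell types moved with BgnFru vs WTFru. The summed FPKM of the 15 astrocyte markers was 2487 to 3312 in BgnFru libraries and 2077 to 2369 in WTFru libraries, and that of the 15 microglia markers was 376 to 499 in BgnFru and 295 to 366 in WTFru. All 15 genes of each list were higher in BgnFru vs WTFru, 4 of the astrocyte and 0 of the microglia markers were called, and no marker was at 0 in any library. The 15 meningeal and fibroblast markers were also all higher, with 0 called, a median log2 fold of 0.47 and sums of 92.6 to 441 FPKM in BgnFru and 41.3 to 204 FPKM in WTFru. Of the 15 tested endothelial and mural markers 13 were higher and 1 was called. The oligodendrocyte markers did not separate the groups, with 10 of 14 higher, 0 called, a median of 0.02 and sums of 2290 to 3520 FPKM in BgnFru and 2238 to 3018 FPKM in WTFru. Of the 14 CA1 and CA3 markers 9 were lower and 2 were called lower, with a median of -0.08, where 3.76% of all genes were called. Of the 11 GABAergic interneuron markers 9 were lower, and of the 10 dentate granule markers 6, with 0 called in either list. With astrocyte, oligodendrocyte and endothelial scores as covariates the fold of Hsd11b1 in BgnFru vs WTFru was 0.05 (limma adjusted p 0.886) and that of Nr3c2 was -0.20 (adjusted p 0.478). That fit held no neuronal score. Deviations of Hsd11b1 from its group means had a Pearson r of 0.79 with those of the dentate granule marker score, 0.70 with microglia, 0.60 with oligodendrocytes, 0.58 with astrocytes, -0.51 with regions next to the hippocampus and -0.70 with GABAergic interneurons over the 16 libraries; with the other 5 of the 11 scores it lay between -0.44 and 0.00. Those of Nr3c2 had an r of 0.77 with the CA1 and CA3 score, -0.71 with meninges and fibroblasts and -0.63 with the endothelial and mural score, and between -0.39 and 0.37 with the other 8. These correlations are descriptions over libraries that share preparation and dissection. The part of these cell types in the values of Hsd11b1 and Nr3c2 was not tested.

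All 15 choroid plexus markers were also higher in BgnFru vs WTFru, with a median log2 fold of 1.09 and 0 called. They differed widely between libraries, with summed FPKM of 2934 to 10275 in BgnFru and 326 to 4933 in WTFru. The lowest was the library labelled WTFru replicate 1 and the highest BgnFru replicate 4. Without both of these libraries the log2 fold of Nr3c2 in BgnFru vs WTFru was -0.17 (limma adjusted p 0.417) and that of Hsd11b1 was 0.41 (adjusted p 0.286). With a choroid plexus score as a covariate Nr3c2 gave -0.25 (adjusted p 0.257) and Hsd11b1 gave 0.61 (adjusted p 0.085).

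Fkbp5 (chr17:28399094-28517527, minus strand) encodes a co-chaperone that lowers the hormone affinity of the glucocorticoid receptor and is itself raised by the hormone, which closes a feedback loop. It had 21.8, 15.1, 13.6 and 17.3 FPKM in BgnFru, 20.7, 16.7, 15.98 and 15.4 FPKM in BgnCtrl, 17.0, 16.2, 14.5 and 16.5 FPKM in WTFru, and 15.9, 12.8, 17.5 and 18.8 FPKM in WTCtrl. The groups overlapped, and replicate 1 was the highest library in BgnFru, BgnCtrl and WTFru. The log2 fold change of Fkbp5 was 0.06 in BgnFru vs WTFru (95% interval -0.23 to 0.35) and 0.08 in BgnCtrl vs WTCtrl (-0.21 to 0.37), within the spread between replicates.

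Sgk1 (chr10:21882184-21999903, plus strand) encodes a kinase that acts on ion channels and transporters and is a classic early target of both receptors. Its level was 71.3, 30.3, 21.2 and 46.2 FPKM in BgnFru and 46.6, 27.6, 21.8 and 23.4 FPKM in BgnCtrl. It was 56.8, 69.7, 31.9 and 59.4 FPKM in WTFru and 68.8, 26.1, 38.5 and 45.0 FPKM in WTCtrl. The highest and the lowest of all 16 libraries both belonged to BgnFru. Its log2 fold was -0.44 in BgnFru vs WTFru (95% interval -1.22 to 0.33, limma adjusted p 0.510) and -0.55 in BgnCtrl vs WTCtrl (-1.32 to 0.23, adjusted p 1). Single libraries moved both values: on fructose Sgk1 gave -0.17 without BgnFru replicate 3, -0.74 without BgnFru replicate 1 and -0.68 without WTFru replicate 3, and on water it gave -0.31 without WTCtrl replicate 1. Over both drinks Sgk1 gave -0.49 (SE 0.26, adjusted p 0.287), with a median of 28.9 FPKM in the knockout and 50.9 FPKM in the wild type.

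Tsc22d3 (chrX:140539528-140600659, minus strand) encodes GILZ, a leucine zipper protein that carries part of the anti-inflammatory action of glucocorticoids. Its level was 58.5, 27.1, 26.9 and 45.9 FPKM in BgnFru and 43.5, 29.3, 25.0 and 26.8 FPKM in BgnCtrl, against 31.5, 38.7, 27.7 and 40.6 FPKM in WTFru and 40.3, 23.8, 36.3 and 37.5 FPKM in WTCtrl. The BgnFru libraries lay both above and below the WTFru range. Its folds were 0.13 in BgnFru vs WTFru (95% interval -0.39 to 0.65) and -0.15 in BgnCtrl vs WTCtrl (-0.67 to 0.37), neither beyond its SE of 0.24.

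Errfi1 (chr4:150853919-150868892, plus strand), which encodes an inhibitor of the epidermal growth factor receptor, had 17.9, 13.5, 12.7 and 14.2 FPKM in BgnFru, against 16.7, 19.1, 15.3 and 18.9 FPKM in WTFru. In BgnCtrl it had 16.05, 15.8, 14.01 and 14.8 FPKM, against 18.5, 14.6, 16.7 and 18.8 FPKM in WTCtrl. BgnFru replicates 2 to 4 lay below all WTFru libraries and replicate 1 lay among them. The log2 fold was -0.25 in BgnFru vs WTFru (SE 0.10, limma p 0.029, adjusted p 0.176) and -0.21 over both drinks (SE 0.07, adjusted p 0.119). With a term for replicate 1, Errfi1 passed over both drinks (-0.21, adjusted p 0.0418, 18% of all genes called). Without BgnFru replicate 1 it passed on fructose (-0.35, adjusted p 0.0406, 7.43% called). In replicates 2 to 4 alone Errfi1 gave -0.37 on fructose (adjusted p 0.0397, 10.9% called) and -0.26 over both drinks (adjusted p 0.0358, 12.6% called).

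Ddit4 (chr10:59949669-59951834, minus strand) encodes an inhibitor of the mTORC1 growth pathway that also responds to hypoxia and energy stress. It had 41.7, 19.0, 20.6 and 22.3 FPKM in BgnFru, against 36.3, 31.4, 23.7 and 27.2 FPKM in WTFru, and 26.1, 18.01, 20.2 and 23.2 FPKM in BgnCtrl, against 36.0, 22.1, 23.97 and 22.0 FPKM in WTCtrl. Replicate 1 was the highest library in every group. The log2 fold of Ddit4 was -0.24 in BgnFru vs WTFru (SE 0.22, limma adjusted p 0.557), and was -0.12 without BgnFru replicate 2 and -0.49 without BgnFru replicate 1. On water Ddit4 gave -0.22, and -0.06 without WTCtrl replicate 1. In replicates 2 to 4 alone Ddit4 gave -0.39 on fructose (adjusted p 0.0412), where 10.9% of all genes were called. Over both drinks it gave -0.27 there (adjusted p 0.0396), where 12.6% were called.

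Cdkn1a (chr17:29090976-29100727, plus strand) encodes the cell cycle inhibitor p21. It had 6.09, 5.21, 4.51 and 4.52 FPKM in BgnFru, against 5.49, 7.47, 5.14 and 10.1 FPKM in WTFru, with a fold of -0.37 (SE 0.18, limma adjusted p 0.242). It had 3.83, 4.93, 3.45 and 4.92 FPKM in BgnCtrl, against 6.96, 4.05, 5.57 and 5.37 FPKM in WTCtrl, with a fold of -0.29 (adjusted p 1). In both pairs 4 of 4 knockout libraries lay below the mean of the wild type on the same drink, and the groups overlapped. Without WTFru replicate 4 the fold on fructose was -0.20, and without WTCtrl replicate 1 that on water was -0.18. Over both drinks Cdkn1a gave -0.33 (SE 0.13, adjusted p 0.140).

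Zbtb16 (chr9:48654297-48836222, minus strand) encodes the zinc finger transcription factor PLZF. It had 17.9, 16.04, 12.8 and 16.7 FPKM in BgnFru, 26.3, 20.9, 18.2 and 17.1 FPKM in BgnCtrl, 16.2, 19.0, 15.9 and 25.0 FPKM in WTFru, and 19.2, 14.6, 24.6 and 24.6 FPKM in WTCtrl. BgnFru had the lowest group mean, 15.9 ± 2.20 FPKM (SD, n = 4), and its libraries overlapped those of every other group. Zbtb16 gave -0.24 in BgnFru vs WTFru (SE 0.18, limma adjusted p 0.467) and 0.00 in BgnCtrl vs WTCtrl. The value on fructose was -0.11 without WTFru replicate 4 and -0.14 without BgnFru replicate 3.

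Fructose against water gave no called member in either genotype. In BgnFru vs BgnCtrl 0% of all genes were called by limma, 12.9% had an unadjusted p under 0.05 and 3.99% did not overlap between groups; of the 10 genes, 0 were called, 1 had an unadjusted p under 0.05 and 0 did not overlap. That gene was Nr3c2, with 28.8 ± 3.99 FPKM in BgnFru and 34.1 ± 2.22 FPKM in BgnCtrl (SD, n = 4 each) and a log2 fold of -0.24 (SE 0.10, p 0.029, limma adjusted p 0.346, 4 of 4 BgnFru libraries below the BgnCtrl mean). Zbtb16 gave -0.35 (SE 0.18, adjusted p 0.420), also with 4 of 4 libraries on that side. Sgk1 (0.41), Hsd11b1 (0.30), Tsc22d3 (0.29), Cdkn1a (0.21) and Nr3c1 (-0.11) exceeded their SE, and the other 3 lay between -0.06 and 0.18. In WTFru vs WTCtrl 0.00791% of all genes were called and 1.87% did not overlap, against 0 and 0 of the 10, and 0 of the 10 had an unadjusted p under 0.05. Only Cdkn1a (0.29) and Nr3c1 (-0.13) exceeded their SE in the wild type, and the other 8 lay between -0.11 and 0.31.

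The response to fructose was not shown to differ between genotypes for any of the 10. In the interaction of genotype and drink 0.00791% of all genes were called and 0 of the 10, 0 with an unadjusted p under 0.05, and the adjusted p was 0.999 for each (limma). Hsd11b1 (0.29, SE 0.24) and Nr3c2 (-0.22, SE 0.14) exceeded their SE. The intervals were wide, from -0.99 to 1.19 for Sgk1 and from -0.25 to 0.28 for Nr3c1. For fructose against water over both genotypes 0.00791% of genes were called and 0 of the 10, with log2 folds from -0.23 for Zbtb16 to 0.36 for Sgk1 and a smallest limma adjusted p of 0.494, that of Cdkn1a.

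The 10 genes also varied between libraries of the same group, and the hormone-responsive genes did so together. From here on Fkbp5 is counted among the hormone-responsive genes, which makes them 7. Each value was taken as log2(FPKM + 1) minus the mean of its group, which removes the differences between groups. In each group 1 library was below its group mean for all 7 of Fkbp5, Tsc22d3, Sgk1, Errfi1, Zbtb16, Ddit4 and Cdkn1a: replicate 3 in BgnFru, BgnCtrl and WTFru, and replicate 2 in WTCtrl. BgnFru replicate 1 and WTFru replicate 2 were above it for all 7. Sgk1 had the widest deviations, from -0.82 in BgnFru replicate 3 to 0.88 in BgnFru replicate 1. In those libraries Tsc22d3 deviated by -0.46 and 0.63, and Fkbp5 by -0.28 and 0.37. The receptors deviated less: in BgnFru replicates 3 and 1 Nr3c1 deviated by -0.04 and 0.06, and Nr3c2 by 0.01 and 0.24.

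**Figure D3:**
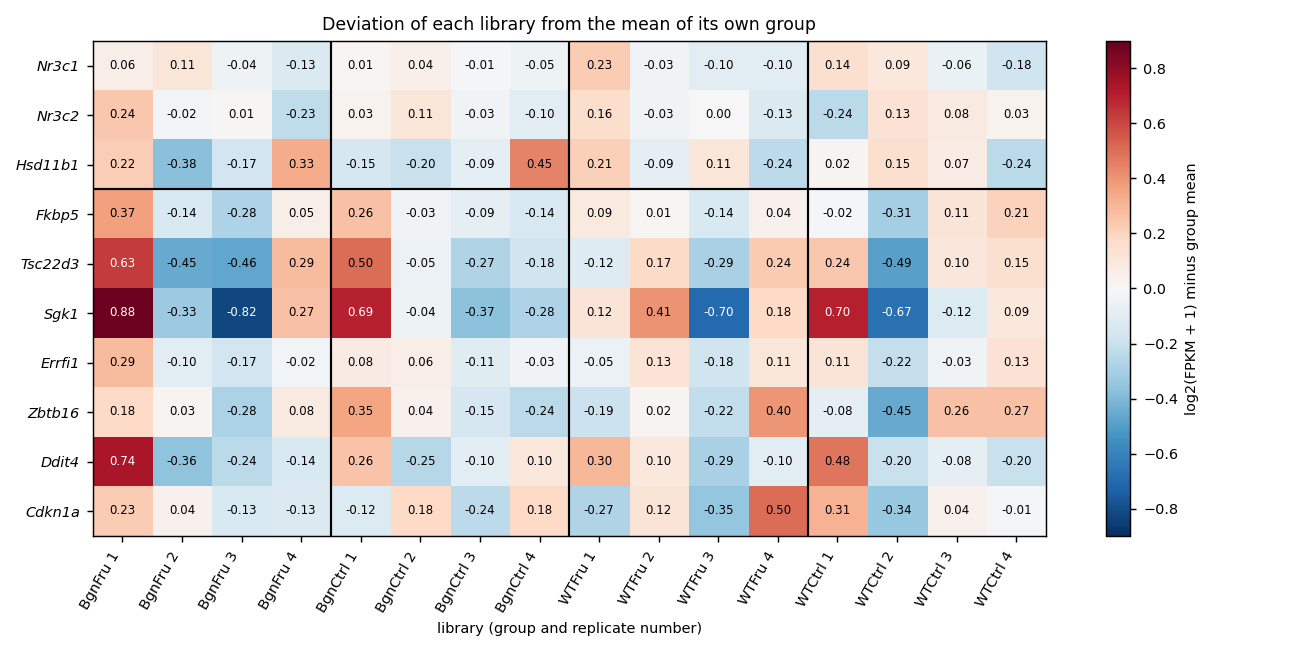
Deviation of each library (columns, by group and replicate number) from the mean of its own group on the log2(FPKM + 1) scale, for Nr3c1, Nr3c2 and Hsd11b1 above the line and the 7 hormone-responsive genes below it. BgnFru replicate 1 is above and BgnFru replicate 3 below the mean in all 7 lower rows, with 0.88 and -0.82 for Sgk1.

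Over the 45 pairs of the 10 genes, the 21 pairs among the 7 hormone-responsive genes had Pearson r between 0.17 and 0.93. All 21 were positive, and 11 passed a 2-sided exact permutation test within groups (331776 permutations, n = 16, Benjamini-Hochberg over the 45 pairs, threshold 0.05). With Spearman's rho 11 passed. These permutations treated replicate 1 as interchangeable with replicates 2 to 4, although a term for replicate 1 passed in 50.4% of all genes tested. The share of passing pairs among other genes was not determined. Of the 21 pairs 18 had r over 0.5. Among all other genes tested, 12.9% had r over 0.5 with Fkbp5 and 9.28% with Tsc22d3. The 24 pairs with Nr3c1, Nr3c2 or Hsd11b1 had r between -0.38 and 0.44, with 11 positive, 0 passing, 0 at an unadjusted exact p under 0.05 and a smallest adjusted p of 0.320. The closest pair was Sgk1 and Tsc22d3, with r of 0.93 and rho of 0.94 (exact permutation p 1.81e-05, adjusted p 0.000316, and for rho 1.21e-05 and 0.000543, n = 16). It remained at 0.89 without the 2 libraries farthest from the median of Sgk1 and at 0.94 without the library labelled WTFru replicate 1 and BgnFru replicate 4. Fkbp5 and Tsc22d3 had r of 0.89 and rho of 0.84 (exact permutation p 0.00136, adjusted p 0.0089, and for rho 0.00325 and 0.0244, n = 16), and 0.83 without the 2 libraries farthest from the median. Sgk1 and Errfi1 had r of 0.89 and rho of 0.86 (exact permutation p 1.81e-05, adjusted p 0.000316, and for rho 0.000124 and 0.00185, n = 16), and 0.84 without the 2 farthest.

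The replicate 1 libraries were higher for several of these genes, with coefficients of 0.80 for Sgk1 (limma adjusted p 0.00742), 0.59 for Ddit4 (0.000112), 0.23 for Fkbp5 (0.0497) and 0.15 for Nr3c1 (0.0369), and 0.42 for Tsc22d3 (0.0516). In replicates 2 to 4 alone, centred on their own means, the 21 pairs had r between 0.09 and 0.91 and 8 passed (exact permutation, n = 12, Benjamini-Hochberg over the 45 pairs), against 0 of the 24 pairs with a receptor or Hsd11b1. Those 24 pairs had r between -0.64 and 0.63. Both receptors had a negative r with every hormone-responsive gene in these libraries. With Tsc22d3 it was -0.64 for Nr3c2 (adjusted p 0.171) and -0.62 for Nr3c1 (adjusted p 0.333). Sgk1 and Tsc22d3 had r of 0.91 there (adjusted p 0.0260), and Fkbp5 and Zbtb16 0.90 (adjusted p 0.0174). Sgk1 and Ddit4 had r of 0.78 over all 16 libraries (adjusted p 0.0156) and 0.48 in replicates 2 to 4 (adjusted p 0.355), so that pair did not pass without replicate 1. The receptors had r of 0.32 with each other over 16 libraries (adjusted p 0.528) and 0.63 in replicates 2 to 4 (adjusted p 0.166). Within replicate 1 there is 1 library per group, so no deviations can be formed.

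**Figure D4:**
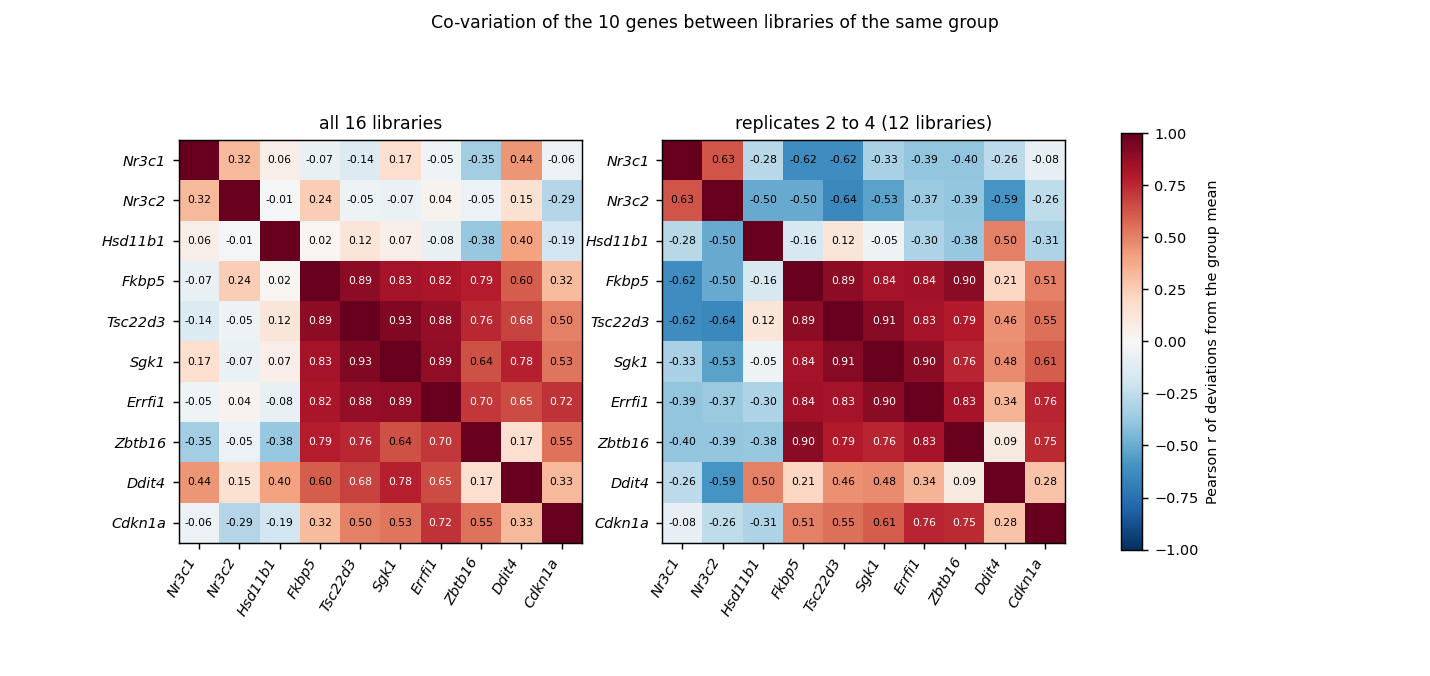
Pearson r between the group-centred log2(FPKM + 1) values of each pair of the 10 genes, over 16 libraries on the left and the 12 libraries of replicates 2 to 4 on the right; red is positive and blue negative. The block of Fkbp5, Tsc22d3, Sgk1, Errfi1 and Zbtb16 is red in both, and the receptors and Hsd11b1 lie outside it.

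The deviations of Tsc22d3 were also set against those of 11 marker scores, as a description over the same 16 libraries. Their r ran from -0.57 for regions next to the hippocampus and -0.39 for microglia to 0.16 for CA1 and CA3 neurons. Sgk1 had r of -0.54 and -0.52 with the scores of neighbouring regions and microglia, and -0.47 with the endothelial and mural score. Every hormone-responsive gene had a negative r with the score of neighbouring regions, from -0.72 for Ddit4 to -0.34 for Zbtb16. The same held for the oligodendrocyte score, from -0.68 for Zbtb16 to -0.11 for Ddit4. It also held for the endothelial and mural score, from -0.66 for Ddit4 to -0.04 for Cdkn1a. The microglia score likewise had a negative r with each of them, from -0.52 for Sgk1 to -0.19 for Cdkn1a. So did the astrocyte score, from -0.40 for Sgk1 to -0.08 for Cdkn1a. The part of tissue composition in the shared variation was not tested.

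A list of 40 other genes known to respond to glucocorticoids, of which 35 were tested, was set against Tsc22d3 and Fkbp5 as a description. The deviations of 13 of these 35 genes (37.1%) had an r over 0.5 with Tsc22d3, against 9.28% of all other genes tested, and in replicates 2 to 4 alone the shares were 54.3% and 7.81%. With Fkbp5 the shares were 34.3% and 12.9%, and 45.7% and 7.63% in replicates 2 to 4. With Nr3c1 they were 8.57% and 23.3%, and 0% and 14.7% in replicates 2 to 4. With Nr3c2 they were 0% and 6.09%, and 0% and 17.8% in replicates 2 to 4. The median r of the 35 genes was -0.35 with Nr3c1 and 0.03 with Nr3c2 over 16 libraries. In replicates 2 to 4 it was -0.29 with Nr3c1 and -0.48 with Nr3c2. Over all other genes tested the medians with Nr3c1 and Nr3c2 were 0.03 and 0.05, and 0.02 and 0.06 in replicates 2 to 4. Highest with Tsc22d3 over 16 libraries were Hif3a (0.94), a hypoxia-inducible factor subunit, Arrdc2 (0.82), the metallothioneins Mt2 (0.76) and Mt1 (0.73), and the Krüppel-like factors Klf9 (0.75) and Klf15 (0.70). In replicates 2 to 4 their r was 0.96, 0.63, 0.76, 0.65, 0.47 and 0.90 in that order. There Rhou (0.93, against 0.69 over 16 libraries) and Per1 (0.89, against 0.30) were among the highest. Genes are not independent replicates, and all of these values share the same 16 libraries.

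The genes whose log2(FPKM + 1) followed a member most closely over the 16 libraries, differences between groups included, were different for each. Genes named Gm plus digits, or with a name ending in Rik, were left out of this ranking. For Nr3c2 they were Cdc40 (r 0.97), a splicing factor, the ephrin receptor Epha4 (0.92) and the phosphatase Ptpn3 (0.90), with 0.97, 0.95 and 0.90 over the 12 libraries of replicates 2 to 4. For Nr3c1 they were Atp8a1 (0.86), Acvr1c (0.84) and Thoc2 (0.83), with 0.79, 0.79 and 0.72 over the 12 libraries. For Fkbp5 they were Lrrc8c (0.85), Endod1 (0.84) and Gpt2 (0.82), with 0.92, 0.73 and 0.60.

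Other genes of the pathway were examined in 5 lists. Of the 25 receptor partners (Hsp90 machinery and coregulators), 23 were tested and 0 were called in any comparison. In BgnFru vs WTFru 18 of the 23 were lower, with a median log2 fold of -0.12 against -0.01 over all genes. The coactivator Ncoa3 gave -0.23 (limma adjusted p 0.0897), the mediator subunit Med1 -0.10, the corepressor Nrip1 -0.15 and the chaperone Hsp90ab1 -0.22 (adjusted p 0.162). Hsp90ab1 averaged 754 ± 76.3 FPKM in BgnFru and 877 ± 51.3 FPKM in WTFru (SD, n = 4 each).

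Of the 35 tested other glucocorticoid response genes, 3 fell over both drinks in the knockout, 1 of these also in BgnFru vs WTFru, and 0 rose; over all genes 4.99% were called over both drinks and 3.76% on fructose, so the share on fructose was not above that of all genes. The medians were -0.10 over both drinks and -0.02 on fructose. Per1, a period gene of the circadian clock with glucocorticoid response elements, had 14.1, 15.6, 13.9 and 18.02 FPKM in BgnFru, against 16.2, 26.1, 21.0 and 31.1 FPKM in WTFru. On water it had 16.4, 17.4, 15.8 and 17.5 FPKM in BgnCtrl, against 20.2, 21.3, 27.3 and 27.9 FPKM in WTCtrl, without overlap. Per1 fell by 0.52 over both drinks (log2 fold -0.52, SE 0.11, limma adjusted p 0.0135), and gave -0.55 on fructose (adjusted p 0.0622) and -0.49 on water (adjusted p 0.439). Without the library labelled WTFru replicate 1, the lowest of the wild type, the value for Per1 over both drinks was -0.60 (adjusted p 0.00194). The insulin receptor substrate Irs2 fell on fructose (-0.33, adjusted p 0.0408) and over both drinks (-0.23, adjusted p 0.032), and Fos over both drinks (-0.86, adjusted p 0.0373). The call of Irs2 on fructose was lost without BgnFru replicate 2, 3 or 4, BgnCtrl replicate 3, WTFru replicate 2 or 4, or WTCtrl replicate 2 or 3 (adjusted p 0.0509 to 0.133), and in 4 other alternatives (up to 0.395, with glial and endothelial scores). Over both drinks it was lost without BgnFru replicate 3 or 4, BgnCtrl replicate 1, 3 or 4, WTFru replicate 2 or 4, or WTCtrl replicate 4, and with those scores (0.0534 to 0.275). The call of Fos was lost without BgnFru replicate 2 or 4, BgnCtrl replicate 1 or 2, WTFru replicate 2 or 4, or WTCtrl replicate 2, 3 or 4, and in 3 other alternatives (0.0544 to 0.0805). The list shares Fos and Dusp1 with the immediate early gene list and Gjb6, an astrocyte connexin that gave 0.42 on fructose (adjusted p 0.0942), with the astrocyte list. The summed immediate early markers were 228 to 260 FPKM in BgnFru and 312 to 567 FPKM in WTFru, without overlap, and 237 to 341 FPKM in BgnCtrl and 387 to 490 FPKM in WTCtrl, without overlap. Of these 15 markers 9 were called lower over both drinks, where 4.99% of all genes were called, 4 on fructose (3.76%) and 2 on water (0.387%); their part in these values was not tested.

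Of the 23 genes of corticosteroid metabolism and transport, 10 passed the filter and 1 was called, on water and over both drinks (0.387% and 4.99% of all genes). Srd5a1 encodes steroid 5-alpha-reductase type 1, which inactivates corticosterone and starts the conversion of progesterone and deoxycorticosterone to neuroactive steroids. It had 2.49, 3.53, 3.88 and 3.58 FPKM in BgnFru, against 3.89, 4.64, 4.87 and 4.26 FPKM in WTFru. On water it had 3.04, 3.57, 3.07 and 2.89 FPKM in BgnCtrl, against 5.28, 5.81, 5.94 and 4.40 FPKM in WTCtrl. All 8 knockout libraries lay below all 8 wild-type libraries, narrowly so beside the library labelled WTFru replicate 1. Srd5a1 fell on water (log2 fold -0.61, SE 0.11, limma adjusted p 0.0153) and over both drinks (-0.47, SE 0.08, adjusted p 0.00216), and gave -0.32 on fructose (adjusted p 0.106). The call over both drinks held in 28 of 28 alternatives, with adjusted p from 0.000434 to 0.0419, and the call on water was lost in 5 of 29, those without BgnCtrl replicate 1, 3 or 4 or WTCtrl replicate 2 or 3 (adjusted p 0.0526 to 0.0777). Among the others, the transporter Abcb1a gave 0.32 on fructose (adjusted p 0.101) and the translocator protein Tspo 0.49 (adjusted p 0.0848).

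The list of 16 genes for the corticotropin-releasing hormone and vasopressin system also held genes outside it, among them Adcyap1, Adcyap1r1 and Oxtr. Of the 16, 8 were tested and 1 was called, on fructose and over both drinks (3.76% and 4.99% of all genes). The called gene was 1 of those outside that system. Adcyap1r1, the receptor of the peptide PACAP, rose in BgnFru vs WTFru (log2 fold 0.31, SE 0.08, limma adjusted p 0.0409) and over both drinks (0.23, adjusted p 0.0286). It had 44.5, 39.7, 45.2 and 40.8 FPKM in BgnFru, against 35.9, 32.9, 33.7 and 33.6 FPKM in WTFru, without overlap. The call of Adcyap1r1 on fructose was lost without BgnFru replicate 1, 3 or 4, BgnCtrl replicate 2, any 1 of the WTFru libraries, or WTCtrl replicate 3 or 4, and in 3 other alternatives (adjusted p 0.0501 to 0.387). Over both drinks it was lost without BgnFru replicate 3, BgnCtrl replicate 1 or 4, WTFru replicate 2, 3 or 4, or WTCtrl replicate 2 or 3, and with glial and endothelial scores (0.0511 to 0.364). Crh itself had 0.94 to 2.26 FPKM in the 8 knockout libraries and 1.46 to 2.85 FPKM in the 8 wild-type libraries, with no call.

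Of the 25 other steroid and nuclear receptors, 19 were tested. On water 1 was called (0.387% of all genes), and on fructose and over both drinks 2 were called (3.76% and 4.99%), both orphan receptors that neuronal activity induces and that also stand in the immediate early list. Nr4a3 fell on water (-0.53, limma adjusted p 0.0358), on fructose (-0.68, adjusted p 0.00277) and over both drinks (-0.60, adjusted p 0.000169). Nr4a1 fell on fructose (-1.04, adjusted p 0.0104) and over both drinks (-0.90, adjusted p 0.00166). The call of Nr4a3 on water was lost without BgnFru replicate 3, any 1 of the BgnCtrl libraries, WTFru replicate 2, or WTCtrl replicate 2, 3 or 4, and in 2 other alternatives (adjusted p 0.0521 to 0.140), and that of Nr4a1 on fructose when the fit held only the groups compared (adjusted p 0.0759). The receptors Rxra (0.28 on fructose, adjusted p 0.0734) and Thrb (-0.42 in BgnFru vs BgnCtrl, adjusted p 0.318) were not called.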

How the data were processed

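The values are FPKM that the authors deposited for each library; per the submitters' processing notes they used TopHat or TopHat2, Bowtie or Bowtie2, Cufflinks and Cuffdiff with mm10, with versions, strand setting and scaling not given in the sources used here. Per the labels' protocols, messenger RNA was enriched by poly-A selection and copied with random hexamers. Whole reads could not be recovered from low FPKM, so depth is unknown and no counting interval is given. The 4 columns of group FPKM were not used. Loci of 1 name were summed (711 names); the 4269 of 27670 loci without a name, which hold 46.8 to 70.4% of the FPKM of a library, were left out.

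Tests used limma 3.58.1 in R 4.3.3 (eBayes with trend) on log2(FPKM + 1) over 16 libraries with 4 group means, for genes whose mean FPKM reached 1, with p-values adjusted by Benjamini and Hochberg over all 12648 genes. The steps were tested on simulated data with independent noise in each library and no shift of replicate 1. That simulation therefore does not cover the replicate 1 differences seen here. A fold on this scale understates the change of low genes. "On fructose", "on water" and "over both drinks" refer to knockout against wild type. A member's fold is carried through the alternatives where it exceeds its SE.

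Same-number libraries deviated together for fructose against water (r 0.12 to 0.70 in the wild type, 0.20 to 0.61 in the knockout). This met the rule for pairs that every r exceeds 0.1. In replicates 2 to 4 alone r was 0.00 to 0.14 and -0.04 to 0.31, so the rule was not met there. The values given for fructose against water come from the fit without pairs. In BgnFru vs BgnCtrl 1630 genes had an unadjusted limma p under 0.05 in that fit and 3442 with the replicate block, with 0 called in both. Correlations between members used numpy 2.4.6 and scipy 1.17.1 in Python 3.11.15. Positions came from GENCODE vM21 and promoters from RefSeq GRCm38.p6, by symbol.

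Members, lists and tests were chosen with earlier results of these data known. From each list the text names up to 4 genes by smallest unadjusted p and every called gene. For Nr3c1, Nr3c2 and Fkbp5 it names the 3 genes with the highest r, apart from names of Gm plus digits or ending in Rik. Other genes named, such as those most like Tsc22d3, were chosen after their values were seen. Alternatives were a pseudocount of 0.1 FPKM, 2 filters, 2 scalings, a model without trend, only the groups compared, a replicate block, a term for replicate 1, replicates 2 to 4 alone, each library left out, cell type scores and 1 locus per name.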

Additional observations from a re-analysis of the deposited data

Results flagged for a closer look

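Among 40 sets of 4 libraries (10 genes in 4 groups), 3 had a library far from the other 3 by Dixon's ratio; chance flags about 1 in 20 groups. Hsd11b1 had 27.6 FPKM in BgnCtrl replicate 4, where the next library had 18.7 FPKM and the lowest 17.2 FPKM. Ddit4 had 41.7 FPKM in BgnFru replicate 1, where the next library had 22.3 FPKM and the lowest 19.0 FPKM. Ddit4 also had 36.0 FPKM in WTCtrl replicate 1, where the next library had 23.97 FPKM and the lowest 22.0 FPKM. Both Ddit4 values belong to replicate 1 libraries, which had higher Ddit4 in every group.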

How the results depend on the processing

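The 35 results carried through 30 alternatives gave 1035 values: 1016 kept their direction and their side of the threshold, 14 passed it where they had not and 5 changed sign. None of the 35 passed the threshold as reported, so none could be lost. In BgnFru vs WTFru the number of the 10 genes called was 1 with a term for replicate 1 (17.3% of all genes called), 3 in replicates 2 to 4 alone (10.9%) and 0 to 2 when 1 library was left out (7.43% without BgnFru replicate 1, which gave 2), against 0 as reported (3.76%). Over both drinks the numbers were also 1 (18% of all genes), 3 (12.6%) and 0 to 2 (2 without BgnFru replicate 1, with 1061 genes called), against 0 (4.99%). The replicate block gave 1 call in each, where it called 2483 and 2508 of 12648 genes, Nr3c2 on fructose (-0.30, limma adjusted p 0.0407) and Errfi1 over both drinks (-0.21, adjusted p 0.0352); the block changed no call of the 10 in the other comparisons. Same-number libraries of knockout and wild type had correlations of -0.04 to 0.69 on water and 0.09 to 0.75 on fructose, so their numbers were not taken as pairs. With astrocyte, oligodendrocyte and endothelial scores as covariates, Hsd11b1 gave -0.13 in BgnFru vs BgnCtrl, -0.10 in the interaction and -0.085 for fructose over both genotypes, and Zbtb16 gave 0.021 in BgnFru vs BgnCtrl and 0.026 for fructose over both genotypes; the cause was not tested. Counts over all genes depended on the setting: in BgnFru vs WTFru 76 to 2483 genes were called, in BgnCtrl vs WTCtrl 26 to 126, and over both drinks 219 to 2508. The spread between libraries, widest for Sgk1, limits the differences that could be detected, and depth is unknown.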
